A study of Mus musculus with 18 samples.

Results

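The genes described here are 10 components of the Notch pathway and of the switch to secretory cell fates, namely the ligands Dll1, Dll4 and Jag1, the receptors Notch1 and Notch2, the target gene Hes1, and the fate factors Atoh1, Gfi1, Neurog3 and Neurod1. They were chosen by gene symbol and are 10 of the 55487 genes in the count table. Their RNA levels were measured by sequencing in organoids of the mouse small intestine, which are 3-dimensional cultures grown from intestinal crypts. All organoids were wild type and were established from female C57BL/6 mice, for which the methods on organoids state no age of their own. For 4 days they received 1 μM norepinephrine (5 samples) or its HCl vehicle (4 samples), or 1 μM UK14304, an agonist of the α2-adrenergic receptor (5 samples), or its DMSO vehicle (4 samples). The sample titles carry a number from 1 to 5, called the replicate number below, and number 5 has agonist samples only. As a model, such cultures hold epithelium only and lack the nerves, mesenchyme and immune cells of the gut wall.

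Notch signalling works between neighbouring cells. A ligand on one cell binds a receptor on the next, the receptor is cut by ADAM proteases and by γ-secretase, and its freed intracellular part joins the DNA-binding protein RBPJ in the nucleus to switch on target genes such as Hes1. In the intestinal crypt, Hes1 represses Atoh1, the factor that cells need to enter the Paneth, goblet and enteroendocrine lineages. Cells with active Notch therefore become absorptive enterocytes, whereas cells that carry the ligands become Paneth, goblet or enteroendocrine cells. Downstream of Atoh1, Gfi1 favours the goblet and Paneth fates over the endocrine fate, Neurog3 starts the endocrine fate, and Neurod1 acts after it in maturing endocrine cells.

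The counts were made on the mouse genome GRCm38. Dll4, Jag1, Notch1 and Neurod1 lie on chromosome 2 (119325784 to 119335962, 137081456 to 137116644, 26457903 to 26516663 and 79452521 to 79456751), and Dll1 lies on chromosome 17 (15367354 to 15376872). Notch2 was found on chromosome 3 (98013527 to 98150361), Hes1 on chromosome 16 (30064384 to 30067796) and Atoh1 on chromosome 6 (64729125 to 64731245), where it consists of 1 exon. Gfi1 lies on chromosome 5 (107716657 to 107726036) and Neurog3, also of 1 exon, on chromosome 10 (62133090 to 62134763). Reads over exons of several genes were not counted and strand was not used, which touches 6 of these genes. The largest shared part was 16.3% of the length of Neurog3, which the antisense gene Fam241b (median count 400) overlaps.

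RefSeq start sites of GRCm38.p6 were at hand for 9 of the 10 genes, and the 250 bases before each of their 11 starts were searched on both strands for CANNTG (the E-box, bound by basic helix-loop-helix factors such as ATOH1, NEUROG3 and NEUROD1), CACNAG (the N-box, bound by HES proteins) and TGGGAA (the core of the RBPJ site). The 4 windows below are shown for the fate factors that set the steps of the secretory programme and for the receptor Notch1, and capitals mark the E-box in Gfi1 and Neurog3 and the N-box in Notch1. The Atoh1 window (chr6:64728875-64729124, plus strand), the Gfi1 window before the inner of its start sites (chr5:107724344-107724593, minus strand) and the Neurog3 window (chr10:62132840-62133089, plus strand) overlap no annotated exon, and the Notch1 window (chr2:26503823-26504072, minus strand) lies inside the span of the annotated gene, with 2 of its bases in an exon.
Atoh1: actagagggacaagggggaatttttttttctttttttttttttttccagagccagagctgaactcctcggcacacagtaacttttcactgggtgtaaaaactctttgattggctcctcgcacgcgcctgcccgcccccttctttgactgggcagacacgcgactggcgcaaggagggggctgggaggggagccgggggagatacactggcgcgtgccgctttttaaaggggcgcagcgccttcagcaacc
Gfi1: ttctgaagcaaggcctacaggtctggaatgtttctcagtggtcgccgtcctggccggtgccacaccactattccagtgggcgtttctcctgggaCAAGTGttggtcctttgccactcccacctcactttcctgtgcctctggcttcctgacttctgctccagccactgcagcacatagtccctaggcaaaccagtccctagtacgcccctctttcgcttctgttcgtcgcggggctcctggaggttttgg
Neurog3: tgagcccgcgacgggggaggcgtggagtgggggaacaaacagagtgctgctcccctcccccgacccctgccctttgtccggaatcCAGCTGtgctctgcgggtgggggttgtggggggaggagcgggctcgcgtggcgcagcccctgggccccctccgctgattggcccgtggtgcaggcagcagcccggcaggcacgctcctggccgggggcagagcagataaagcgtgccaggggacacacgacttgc
Notch1: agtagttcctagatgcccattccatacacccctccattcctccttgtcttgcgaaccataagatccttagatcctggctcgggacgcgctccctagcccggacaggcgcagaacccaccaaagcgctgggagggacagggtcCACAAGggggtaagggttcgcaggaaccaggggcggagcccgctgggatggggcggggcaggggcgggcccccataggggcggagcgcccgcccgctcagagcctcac

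An E-box was found in 7 of the 11 windows, against 66.2% of the 32851 promoter windows in the table, and an N-box in 3 of 11, against 36.7%. The letters TGGGAA were found in 0 of 11 windows, against 21.6% of all. These matches describe the printed letters and not binding.

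Expressed per kilobase of exon, so that genes of different length can be compared, Hes1 had the highest level of the 10 genes at 42.8 ± 1.5 CPM per kb (SD, n = 18 libraries), where CPM is the TMM-normalized count scaled to library size. It was followed by Dll1 at 14.9 ± 0.848 CPM per kb and Atoh1 at 8.06 ± 1.2 CPM per kb, and the ranges of these 3 genes over the libraries did not overlap with each other or with that of any lower gene. Next came Notch1 with 4.67 ± 0.263, Neurog3 with 4.1 ± 0.476, Jag1 with 3.94 ± 0.236, Dll4 with 3.72 ± 0.262 and Notch2 with 3.5 ± 0.203 CPM per kb. Each of these 5 overlapped with its neighbour in the order, and Neurog3, for example, was above Jag1 in 11 of the 18 libraries only. These levels use the full exon length, although reads in the 16.3% of Neurog3 shared with Fam241b were not counted. The level of Neurog3 may therefore be too low beside that of Jag1, which shares no exon bases, and their order is not settled. The lowest levels were those of Neurod1 with 1.38 ± 0.197 and Gfi1 with 1.35 ± 0.275 CPM per kb, which overlapped with each other and lay below all other members in every library. All 10 genes were therefore measured in all 18 libraries, with counts that ranged from 61 to 123 for Neurod1 and from 1789 to 2442 for Hes1.

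**Figure D1:**
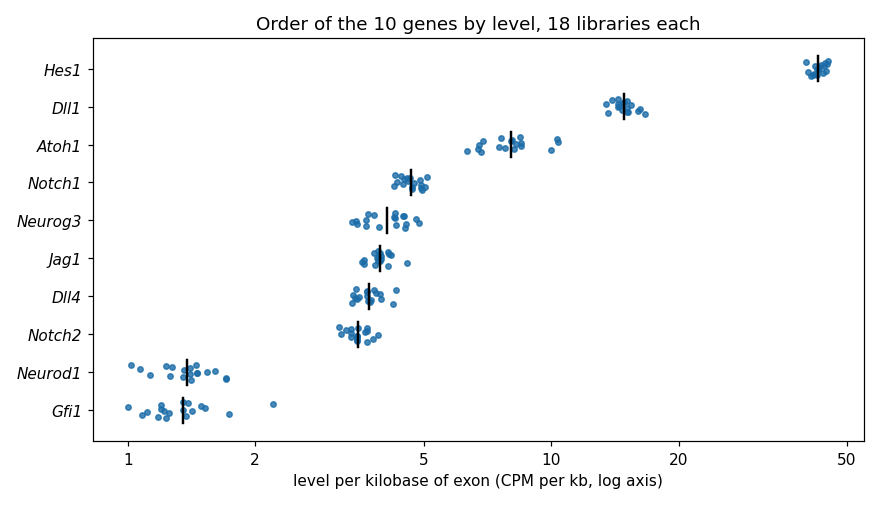
Level of each gene per kilobase of exon (CPM per kb, log axis) in the 18 libraries (points), with the mean as a black line. Hes1 (42.8), Dll1 (14.9) and Atoh1 (8.06) stand apart from each other and from the rest, whereas Notch1, Neurog3, Jag1, Dll4 and Notch2 overlap between 3.15 and 5.08, above Neurod1 and Gfi1.

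The libraries held 21.87 to 27.85 M counted reads. All 6 epithelial markers were present (Epcam, for example, had 31304 to 40323 counts), with a summed level of 5773 to 6400 CPM. The summed level of 6 markers each was at most 0.346 CPM for fibroblasts, 1.57 CPM for endothelial cells, 3 CPM for neural and glial cells and 7.58 CPM for immune cells (at least 4.97 CPM), and the part of the immune markers in the results was not tested. Samples of an agonist and its own vehicle with the same replicate number tended to deviate from their group means in the same direction. Across genes, r was 0.119 to 0.431 in the 4 pairs of norepinephrine and HCl, and 0.155 to 0.52 in the 4 pairs of UK14304 and DMSO. Between the agonists it ran from -0.212 in number 4 to 0.436, where pairs of different numbers reached 0.248. The number was kept as a block in the model. The norepinephrine library of replicate 4 stood apart. Its log2 levels increased with the GC content of the genes by 0.195 per 10 percentage points whereas the same slope lay between -0.146 and -0.0699 in the other 4 norepinephrine libraries and was -0.222 in the UK14304 library of the same number. Results are therefore given with and without the norepinephrine library of replicate 4 where it matters. The UK14304 library of replicate 4 also lay outside its group, where the slopes of the other 4 libraries ran from -0.0877 to 0.0605. A ribosomal RNA gene took over 1% of the counts in 7 libraries, among them 3 of the 4 DMSO libraries and 1 of the 5 UK14304 libraries.

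The first question was whether adrenergic stimulation moved the Notch pathway or the secretory factors at the RNA level. With norepinephrine, 0 of the 10 genes passed an adjusted p of 0.05 (edgeR's quasi-likelihood test over 15247 genes), where 16 of all genes tested did (0.105%), and 0 of the 10 had an unadjusted p under 0.05, where 8.4% of all genes had. With UK14304, again 0 of the 10 passed, where 186 of all genes did (1.22%), and 0 had an unadjusted p under 0.05, where 14.8% of all genes had. DESeq2 also called 0 of the 10 for either agonist. With the replicate number as a block, it called 34 of all genes for norepinephrine (0.223%) and 272 for UK14304 (1.78%). The median log2 fold change of the 10 genes was -0.03 with norepinephrine and 0.02 with UK14304, beside -0.01 and 0.00 over all genes tested. In every case the agonist and the vehicle libraries overlapped, but the share of all genes for which they overlap was not counted. Because the RNA comes from whole organoids, fewer cells of a type and less RNA per cell cannot be told apart.

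**Figure D2:**
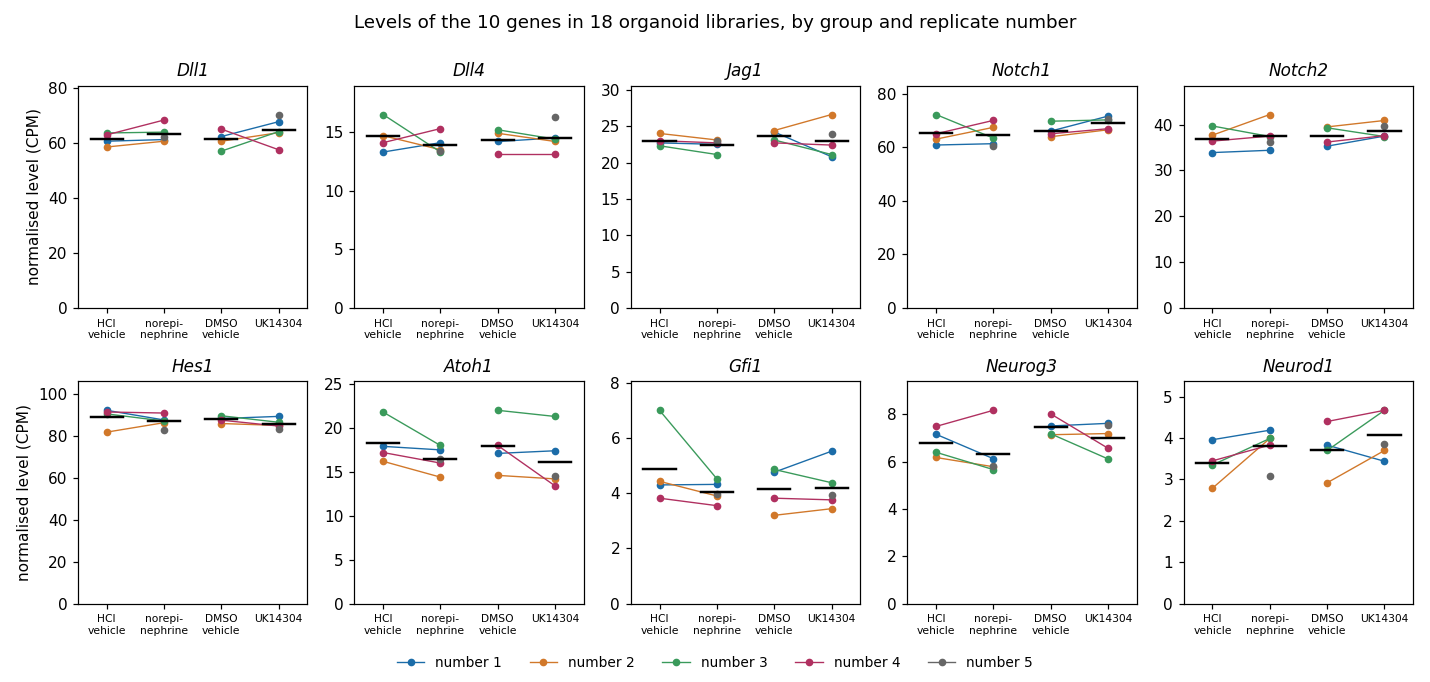
Normalised level (CPM) of each of the 10 genes in every library, by group, with a colour for each replicate number, lines between the agonist and vehicle samples of one number, and black bars for group means. In each panel the agonist and vehicle points overlap. Atoh1 is highest in the libraries of number 3 (18 to 22 CPM), whatever the treatment.

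Among the ligands, Dll1 is carried by secretory progenitors and Dll4 and Jag1 are further activators of the receptors. Dll1 stood at 60.6, 58.5, 63.6 and 62.9 CPM with HCl and at 61.2, 60.6, 63.9, 68.3 and 62.1 CPM with norepinephrine, in the order of the replicate numbers. With DMSO it stood at 62.3, 60.6, 57 and 65 CPM and with UK14304 at 67.7, 63.7, 64.1, 57.5 and 70.3 CPM. The norepinephrine library was higher than the HCl library in 4 of 4 numbers, but by only 0.01 to 0.12 on the log2 scale, and with UK14304 number 4 went down where the other 3 went up. The fitted log2 fold change was 0.03 ± 0.0572 (SE) with norepinephrine and 0.07 ± 0.0571 with UK14304 (adjusted p = 0.858 and 0.595). The 95% intervals span 0.94 to 1.11-fold and 0.96 to 1.14-fold.

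Dll4 had lower counts and stood at 13.3, 14.7, 16.5 and 14.1 CPM with HCl against 14.1, 13.5, 13.3, 15.3 and 13.4 CPM with norepinephrine. The pairs went in both directions, with numbers 1 and 4 higher and numbers 2 and 3 lower with norepinephrine. Its log2 fold change was -0.08 ± 0.0788 with norepinephrine (0.84 to 1.06-fold, adjusted p = 0.708) and 0.00 ± 0.078 with UK14304 (0.89 to 1.12-fold, adjusted p = 0.993). The norepinephrine value was -0.15 (adjusted p = 0.163) without the norepinephrine library of replicate 4 and -0.02 without the HCl library of replicate 3. Jag1 was lower with norepinephrine in 4 of 4 numbers, with differences of only -0.01 to -0.08 on the log2 scale. Its group means were 23 ± 0.738 CPM (SD, n = 4) with HCl and 22.5 ± 0.82 CPM (n = 5) with norepinephrine, and 23.6 ± 0.815 CPM (n = 4) with DMSO and 23 ± 2.4 CPM (n = 5) with UK14304. The intervals for Jag1 were 0.89 to 1.05-fold with both agonists.

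Of the receptors, Notch1, the main one of the crypt base, stood at 60.9, 63.1, 72.3 and 65.1 CPM with HCl and at 61.4, 67.5, 63.5, 70.1 and 60.7 CPM with norepinephrine. With DMSO it stood at 66.1, 64, 69.8 and 65.1 CPM, and with UK14304 at 71.7, 66.6, 70.3, 67 and 70.5 CPM. Each UK14304 library was above the DMSO library of its number (4 of 4), by 0.01 to 0.12 on the log2 scale, whereas norepinephrine gave 3 small positive differences and one of -0.19. The log2 fold change was -0.01 ± 0.0529 with norepinephrine (0.92 to 1.08-fold, adjusted p = 0.971) and 0.07 ± 0.0526 with UK14304 (0.97 to 1.13-fold, adjusted p = 0.527). After each library was corrected for its GC trend, Notch1 passed for UK14304 with a log2 fold change of 0.14 ± 0.0403 (adjusted p = 0.046), as did 626 genes in all (4.11%). Over all the settings tried, its adjusted p with UK14304 ran from 0.018 to 0.898. Without the norepinephrine library of replicate 4, the GC correction called Notch1 (0.14 ± 0.0383, adjusted p = 0.018) and Dll1 (0.12 ± 0.0362, adjusted p = 0.0325) for UK14304, among 1091 genes in all (7.2%).

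Notch2, which acts alongside Notch1, stood at 36.9 ± 2.41 CPM (SD, n = 4) with HCl, 37.5 ± 2.89 CPM (n = 5) with norepinephrine, 37.6 ± 2.12 CPM (n = 4) with DMSO and 38.6 ± 1.61 CPM (n = 5) with UK14304. It was higher with the agonist in 3 of 4 numbers in both comparisons and lower in number 3 in both. The intervals were 0.95 to 1.09-fold with norepinephrine and 0.96 to 1.10-fold with UK14304.

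Hes1, the target gene read most often as a sign of active Notch, was measured with the highest precision. It stood at 92.2, 81.8, 90.5 and 91.4 CPM with HCl and at 87.6, 86.3, 87.1, 90.9 and 82.6 CPM with norepinephrine. With DMSO it stood at 88.3, 85.9, 89.6 and 87.5 CPM and with UK14304 at 89.3, 85, 86.5, 84.7 and 83.5 CPM. The HCl library of replicate 2 was the lowest of all, followed by the 2 libraries of number 5. Its log2 fold change was -0.02 ± 0.0374 with norepinephrine and -0.02 ± 0.0373 with UK14304 (adjusted p = 0.86 and 0.83), and both intervals run from 0.93 to 1.04-fold.

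Atoh1, the gene that Hes1 represses, had a lower mean with either agonist but passed for neither. It stood at 17.9, 16.2, 21.8 and 17.2 CPM with HCl and at 17.5, 14.4, 18, 16 and 16.5 CPM with norepinephrine. All 4 within-number differences were negative, at -0.03, -0.17, -0.28 and -0.10 on the log2 scale. With DMSO it stood at 17.1, 14.6, 22 and 18 CPM, and with UK14304 at 17.4, 14.2, 21.3, 13.4 and 14.5 CPM. Here the differences were 0.03, -0.04, -0.05 and -0.42, so that number 4 accounted for most of the mean. The UK14304 library of replicate 4 had the slope of -0.222 on GC content given above, and its part in the Atoh1 value was not tested. The log2 fold change was -0.13 ± 0.0757 with norepinephrine (0.82 to 1.02-fold, adjusted p = 0.616) and -0.13 ± 0.0746 with UK14304 (0.82 to 1.02-fold, adjusted p = 0.405). Over all settings Atoh1 stayed negative, between -0.15 and -0.06 with norepinephrine and between -0.18 and -0.05 with UK14304, and it passed in none of them. In the same libraries Lyz1 and Defa22, products of mature Paneth cells, fell with norepinephrine (log2 fold change -0.37 ± 0.0501 and -0.69 ± 0.104, adjusted p = 0.0019 and 0.0062) and with UK14304 (-0.31 ± 0.0501 and -0.70 ± 0.103, adjusted p = 0.0031 and 0.00208). Of 5 Paneth cell markers, 2 passed with norepinephrine and 3 with UK14304, all lower, where 0.105% and 1.22% of all genes passed. These calls came with the replicate number as a block. Without it, the adjusted p of Lyz1 and Defa22 in edgeR's test was 0.713 and 0.723 with norepinephrine and 0.508 and 0.518 with UK14304. That of Ang4 with UK14304 was 0.543. The summed level of the 5 markers ranged from 2334 to 3574 CPM with HCl, 1906 to 2666 CPM with norepinephrine, 2227 to 3443 CPM with DMSO and 1941 to 2890 CPM with UK14304. Of 4 goblet cell markers, 0 passed with norepinephrine and 1 with UK14304 (Agr2, -0.16 ± 0.0359, adjusted p = 0.0324, and 0.26 without the block). Muc2, the main mucin of goblet cells, had 0.00 with norepinephrine and 0.11 with UK14304, whereas the others were lower with both. Agr2 had -0.15 with norepinephrine, Tff3 had -0.19 and -0.23, and Clca1 had -0.10 and -0.07. Of 5 enteroendocrine markers, Neurog3 among them, and of the 2 tuft cell markers tested, 0 passed with either agonist. The tuft cell marker Dclk1 had 0.18 with both agonists, and the other, Trpm5, had -0.04 with norepinephrine and 0.08 with UK14304. The part of these cell types in the Atoh1 values was not tested.

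Gfi1 had few reads (79 to 161 per library) and the widest spread of the members, with a coefficient of variation of 20.3% over the 18 libraries. With HCl it stood at 4.3, 4.43, 7 and 3.82 CPM and with norepinephrine at 4.32, 3.9, 4.52, 3.55 and 3.98 CPM. The high value was the HCl library of replicate 3, and the paired difference in that number was -0.62 on the log2 scale, against 0.01, -0.18 and -0.10 in the others. Its log2 fold change was -0.24 ± 0.133 with norepinephrine (0.70 to 1.03-fold, adjusted p = 0.604) and 0.04 ± 0.132 with UK14304 (0.85 to 1.24-fold, adjusted p = 0.922). Leaving out 1 library at a time gave -0.36 to -0.08 with norepinephrine, and the value nearest 0 came without the HCl library of replicate 3.

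Of the endocrine factors, Neurog3 stood at 7.15, 6.17, 6.39 and 7.48 CPM with HCl and at 6.12, 5.78, 5.66, 8.16 and 5.81 CPM with norepinephrine. It was lower with norepinephrine in numbers 1, 2 and 3 and higher in number 4, the library that stood apart. Its log2 fold change was -0.11 ± 0.0998 (0.80 to 1.07-fold, adjusted p = 0.703), and without that library it was -0.21 ± 0.0971 (adjusted p = 0.143). With DMSO the values were 7.5, 7.13, 7.17 and 8.01 CPM and with UK14304 7.61, 7.18, 6.11, 6.56 and 7.56 CPM, and the log2 fold change was -0.09 ± 0.0963 (0.82 to 1.08-fold, adjusted p = 0.681). It came to -0.01 without the UK14304 library of replicate 4 and to -0.13 without that of replicate 2.

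Neurod1, with the fewest reads, went the other way. It stood at 3.96, 2.79, 3.35 and 3.45 CPM with HCl and at 4.19, 3.99, 3.99, 3.83 and 3.08 CPM with norepinephrine, and was higher with norepinephrine in 4 of 4 numbers. With DMSO it stood at 3.83, 2.92, 3.7 and 4.4 CPM and with UK14304 at 3.44, 3.7, 4.67, 4.67 and 3.85 CPM, higher in 3 of 4 numbers. The log2 fold change was 0.21 ± 0.129 with norepinephrine (0.96 to 1.40-fold, adjusted p = 0.616) and 0.18 ± 0.124 with UK14304 (0.94 to 1.35-fold, adjusted p = 0.511). The upper bound of 1.40-fold was the highest among the 10 genes. Leaving out 1 library gave 0.14 (without norepinephrine replicate 2) to 0.32 (without HCl replicate 1) with norepinephrine, and 0.12 (without DMSO replicate 2) to 0.30 (without UK14304 replicate 1) with UK14304. Without the norepinephrine library of replicate 4, Neurod1 had 0.28 ± 0.141 with norepinephrine (adjusted p = 0.169). A term for the ribosomal RNA share brought the UK14304 value to 0.03 (adjusted p = 0.971).

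**Figure D3:**
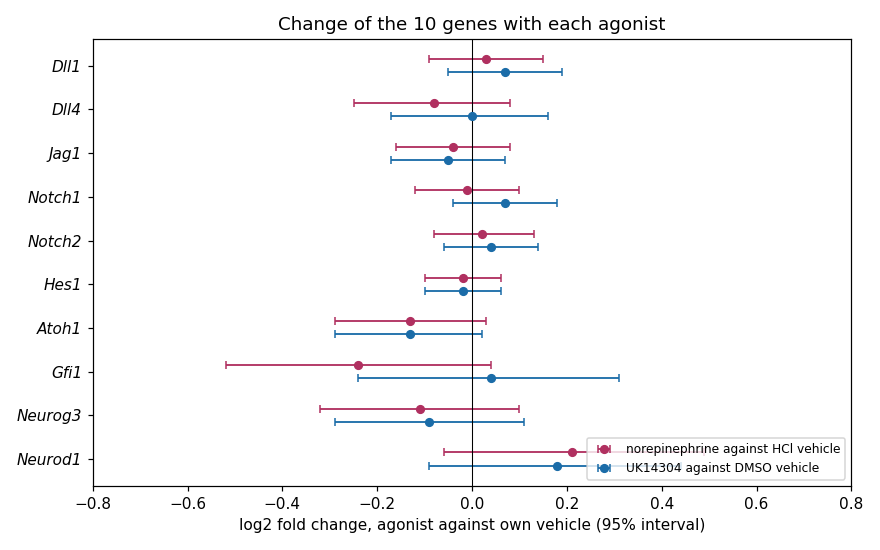
Log2 fold change of each gene with norepinephrine against HCl vehicle and with UK14304 against DMSO vehicle, with 95% intervals. All 20 intervals include 0, and they are narrowest for Hes1 (-0.10 to 0.06 with both agonists) and widest for Gfi1 and Neurod1.

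Across both agonists, the narrow intervals of Hes1, the receptors and the ligands reached at most 1.14-fold up and 0.84-fold down, whereas those of Gfi1 and Neurod1 reached 0.70-fold and 1.40-fold. The effects of the agonists were also compared with each other. In the test of their difference 0 of the 10 genes passed, as did 0 of all 15247 genes (0%), and 0 of the 10 had an unadjusted p under 0.05 (405 of all genes did). The largest difference was that of Gfi1, 0.28 ± 0.183 higher with UK14304 than with norepinephrine (95% interval -0.10 to 0.66, unadjusted p = 0.144). For Hes1 the difference was 0.00 ± 0.0514 (-0.11 to 0.11) and for Atoh1 -0.01 ± 0.103 (-0.23 to 0.21). The vehicles were compared in the same way, and 0 of the 10 genes passed between HCl and DMSO, where 0 of all genes did (0%, with 277 at an unadjusted p under 0.05). Neurog3 was lower with HCl than with DMSO in 4 of 4 numbers (log2 fold change -0.13 ± 0.1, unadjusted p = 0.196), and Gfi1 had the largest value (0.23 ± 0.135, unadjusted p = 0.112). DESeq2 called 0 of the 10 in both of these comparisons. With the block it called 1 of all genes for the difference between the agonists (0.00656%) and 0 for the vehicles (0%).

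Leaving the replicate number out of the model moved the errors of some genes and the values of others. Without the block, 0 of the 10 genes passed for either agonist, where 0 of all genes passed for norepinephrine (0%, with 943 at an unadjusted p under 0.05) and 6 for UK14304 (0.0394%). The standard error of Atoh1 was 0.131 in both comparisons without the block, against 0.0757 and 0.0746 with it, whereas that of Dll1 was 0.0551 and 0.0549 against 0.0572 and 0.0571. For Neurod1 with UK14304 the log2 fold change was 0.13 ± 0.138 without the block, against 0.18 ± 0.124 with it. For the difference between the agonists and for the vehicles, the model without the block also called 0 of the 10 and 0 of all genes (0% in both), with 230 and 194 of all genes at an unadjusted p under 0.05.

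The members differed in how much of their variance went with the number. Split by replicate number and then by group, the variance of log2 CPM of Atoh1 over the 18 libraries fell to 73.2% on the replicate number and to 10.4% on the group. For Notch2 the shares were 62.7% and 8.56%, for Hes1 58.4% and 6.66%, for Gfi1 56.4% and 11.1%, and for Jag1 50.3% and 12.2%. The number took less for Neurog3 (32.8%), Neurod1 (30.2%), Dll1 (18.2%), Notch1 (17.3%) and Dll4 (14.3%). The median share on the number was 41.5% over the 10 genes, beside 30.2% over all genes tested. Atoh1 was highest in number 3 (18 to 22 CPM over 4 libraries) and low in number 2 (14.2 to 16.2 CPM), and these ranges did not overlap. Hes1 had its lowest means in number 5 (83 CPM over 2 libraries) and number 2 (84.7 CPM over 4 libraries), and Notch2 was highest in number 2 (37.7 to 42.2 CPM) and lowest in number 1 (33.9 to 37.5 CPM). The summed level of 5 Paneth cell markers was 2102 CPM on average in number 2, against 3069 CPM in number 1, 3068 CPM in number 3, 2550 CPM in number 4 and 2556 CPM in number 5. Other marker sums were ordered differently. The goblet cell sum was highest in number 2 (1137 CPM, against 818 to 885 CPM in the other numbers), and the enteroendocrine sum, which includes Neurog3, was 464 CPM in number 2 and 342 CPM in number 3. In number 3 the enterocyte sum was lowest (6715 CPM, against 8628 to 9807 CPM) and the stem cell sum highest (6230 CPM, against 4461 to 5470 CPM). The part of these cell types in the differences between numbers was not tested.

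**Figure D4:**
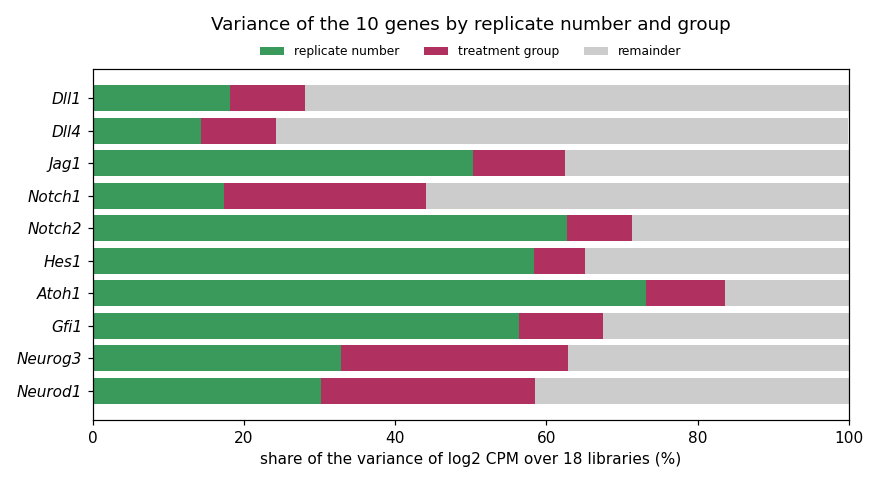
Share of the variance of log2 CPM over the 18 libraries that fell on the replicate number (green), on the treatment group (red, after the number) and on neither (grey), for each of the 10 genes. The green part is largest for Atoh1 (73.2%) and smallest for Dll4 (14.3%).

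The genes most like Atoh1 over the 18 libraries (Pearson's r of log2 CPM, among 12591 genes with a mean of at least 1 CPM) were Guca2a (0.933), Defa22 (0.915), Gm1123 (0.911), Rnase4 (0.904) and Srl (0.903). Guca2a encodes guanylin, a peptide of the gut epithelium, and Defa22 is one of the defensins of Paneth cells. Among the other members, Gfi1 was the closest to Atoh1 (r = 0.698, rank 336) and Hes1 followed (r = 0.497). Hes1 was most like Mt2 (0.863), Fbln1 (0.851), Naa10 (0.816), Cdx2 (0.812) and Ppp1r3e (0.807), and Neurog3 most like Vac14 (0.882), Phf2 (0.866), Endog (0.832), Men1 (0.819) and Srebf1 (0.812). These values describe 18 libraries that share 5 replicate numbers and the library properties given above, and no test was made of them.

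The wider pathway was described with 7 lists of 83 further genes, of which 74 passed the filter on low counts. Of these 74, 0 passed for norepinephrine and 0 for UK14304, where 0.105% and 1.22% of all genes did. An unadjusted p under 0.05 was found for 7 and 9 of the 74, where 8.4% and 14.8% of all genes had one. DESeq2 with the block called 0 of the 74 in both, where it called 0.223% and 1.78% of all genes. Their median log2 fold change was 0.00 and 0.01. As many were higher as lower with norepinephrine (37 and 37), and 41 were higher and 33 lower with UK14304.

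Of the other ligands, Jag2 (17 CPM on average) had a log2 fold change of -0.18 ± 0.101 with norepinephrine and -0.13 ± 0.101 with UK14304. Dll3 and Dlk1 were near the limit of the filter, at 1 and 0.244 CPM, and Dlk2 did not pass it. Notch3 and Notch4, receptors better known from vessels, stood at 1.32 and 4.31 CPM on average and had log2 fold changes between -0.25 and 0.08, with 0 of 2 passing. In the group of proteases, glycosyltransferases and ubiquitin ligases that process ligands and receptors, 0 of 25 passed, with values from -0.19 to 0.22 with norepinephrine and from -0.31 to 0.12 with UK14304. Dtx2, a ubiquitin ligase of the Deltex family, was lower with the agonist in 4 of 4 numbers in both comparisons (-0.19 ± 0.0729 and -0.20 ± 0.0726, adjusted p = 0.561 and 0.203).

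The nuclear complex of RBPJ, its Mastermind coactivators and its corepressors was measured in full, and 0 of 12 passed. Rbpj itself had 0.14 ± 0.0737 with UK14304 and Ncor1, a corepressor, 0.11 ± 0.0387 (adjusted p = 0.382 and 0.207). Only 3 of the 9 other genes in a list of HES and HEY family genes and Nrarp passed the filter. Whether each of them, Hes6 among them, is switched on by Notch in these organoids was not tested. Hes3, Hey1, Hey2 and Heyl had at most 3 counts in any library and Hes5 and Hes7 at most 9. Nrarp, a target that feeds back on the pathway, had -0.34 ± 0.123 with norepinephrine and -0.22 ± 0.123 with UK14304 (adjusted p = 0.556 and 0.405). Hes6 had -0.13 ± 0.0861 and -0.16 ± 0.0861 (adjusted p = 0.629 and 0.387).

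Among the 14 secretory fate factors tested besides Atoh1 and Gfi1, 0 passed, and 9 were lower and 5 higher with each agonist. Creb3l1, a transcription factor of the secretory pathway, had the lowest adjusted p for both agonists, with -0.22 ± 0.0549 with norepinephrine and -0.18 ± 0.0545 with UK14304 (adjusted p = 0.33 and 0.124). Spdef, which drives goblet and Paneth cell maturation, had -0.22 ± 0.0964 with norepinephrine and -0.07 ± 0.0959 with UK14304 (adjusted p = 0.584 and 0.749). Bhlha15 (MIST1), a factor of secretory cell maturation, had -0.17 ± 0.0627 and -0.17 ± 0.0624 (adjusted p = 0.556 and 0.211). Klf4, a factor of goblet cells, had -0.16 ± 0.0726 and -0.19 ± 0.0724 (adjusted p = 0.584 and 0.243). Pou2f3, the master factor of tuft cells, had the largest value in the other direction, 0.17 ± 0.111 with norepinephrine and 0.35 ± 0.106 with UK14304 (adjusted p = 0.627 and 0.139). Of the 15 endocrine factors tested besides Neurog3 and Neurod1, 13 were higher with norepinephrine and 12 with UK14304 by sign, with medians of 0.13 and 0.07, and 0 passed. Isl1 was the gene with a large value in both (0.30 ± 0.206 and 0.29 ± 0.204, adjusted p = 0.645 and 0.509).

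These counts rested on 1 library. When the norepinephrine library of replicate 4 was left out, 2529 of 15161 genes passed for norepinephrine (16.7%), and 14 of the 74 pathway genes were among them, 9 lower and 5 higher, while the count among the 10 members was still 0. Spdef (-0.33 ± 0.0756, adjusted p = 0.00652), Creb3l1 (-0.26 ± 0.0493, adjusted p = 0.00255), Klf4 (-0.22 ± 0.0636, adjusted p = 0.0229) and Bhlha15 (-0.21 ± 0.0596, adjusted p = 0.0199) were lower there. Lower too were Nrarp (-0.44 ± 0.116, adjusted p = 0.0133), Hes6 (-0.25 ± 0.0492, adjusted p = 0.00315), Jag2 (-0.31 ± 0.0763, adjusted p = 0.00977), Furin (-0.17 ± 0.0441) and Dtx2 (-0.23 ± 0.0744). Adam10, the protease that makes the first cut in the activated receptor, was higher (0.17 ± 0.0474, adjusted p = 0.0191), and so were Mib1 (0.18 ± 0.0449), Itch (0.13 ± 0.0405), Kat2b (0.19 ± 0.0567) and Sox4 (0.13 ± 0.0422). For UK14304, whose samples are in the same model, this omission gave 1225 genes in all (8.08%), 5 of the 74 pathway genes (Creb3l1 and Hes6 lower, and Mib1, Ncor1 and Pou2f3 higher) and 0 of the 10 members. The share of pathway genes called was 18.9% against 16.7% of all genes for norepinephrine and 6.76% against 8.08% for UK14304. With the GC correction as well, 486 genes passed for norepinephrine (3.21%) and 0 of the 74 pathway genes were among them.

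**Figure D5:**
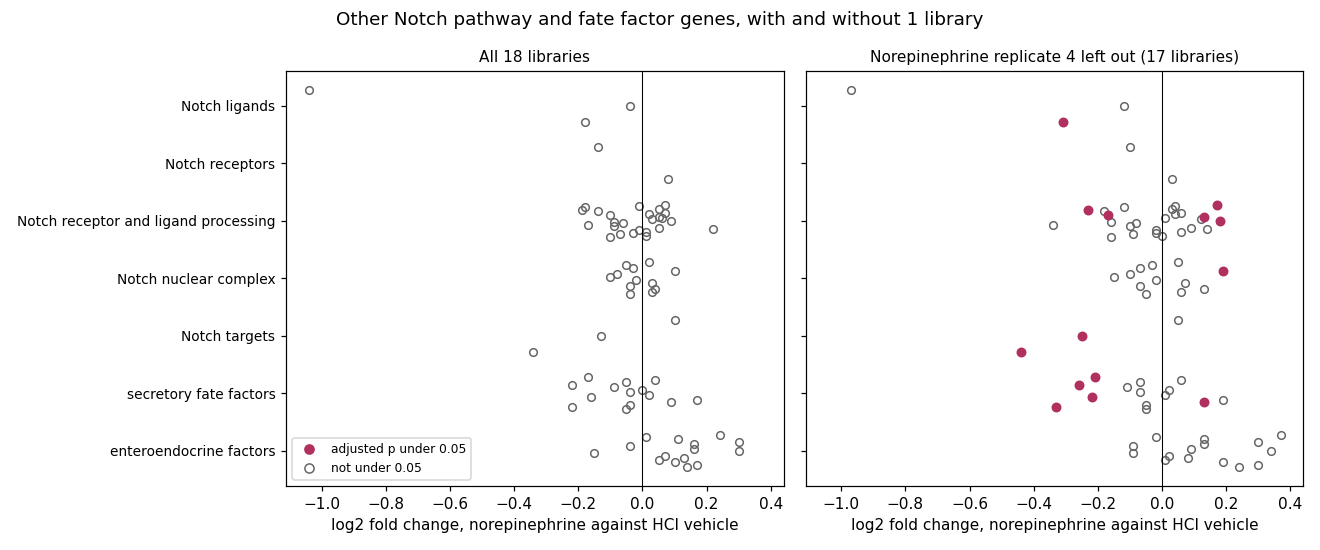
Log2 fold change with norepinephrine of the 74 other pathway and fate factor genes by list, with all 18 libraries (left) and without the norepinephrine library of replicate 4 (right). Filled points have an adjusted p under 0.05, which holds for 0 genes on the left and for 14 on the right, 9 of them lower and 5 higher.

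One gene of the wider lists, chosen here after its values were seen, separated the replicate numbers almost completely. Pdx1, a factor of the proximal intestine and of endocrine cells, stood at 31.8 to 36.3 CPM in the 4 libraries of number 2 and at 0.739 to 1.22 CPM in the 4 libraries of number 3. In numbers 1, 4 and 5 it stood at 10.6 to 12.9, 13.1 to 15.6 and 11 to 11.8 CPM. The replicate number took 99.3% of the variance of its log2 CPM and the group 0.174%, and the ranges of numbers 2, 3 and 4 overlapped with those of no other number.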

How the data were processed

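RNA of 18 organoid samples in 4 groups was sequenced in single reads. Per the file headers and the study's methods, the authors mapped the reads with STAR 2.7.3 to GRCm38 and counted them on exons with featureCounts (2.0.1 in the header, Subread 1.6.4 in the methods), without strand, reads with several hits or reads over several genes. The deposited values are raw counts per gene and the merged exon length of each gene. All 18 columns were matched to samples by name. The members and gene lists were chosen with earlier results of these data known. All members were named. A gene of the wider lists was named if it passed, and otherwise could be if among the 3 of its list with the largest change. For Atoh1, Hes1 and Neurog3 the 5 genes with the highest correlation were named. Other names were chosen after values were seen.

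The counts were taken into edgeR 4.0.16 under R 4.3.3, where filterByExpr on the groups kept 15247 genes, TMM set the normalization and a robust quasi-likelihood model was fitted to the 18 samples, with terms for the 4 groups and the replicate number as a block. This number comes from the sample titles, and all 4 same-numbered pairs of each agonist and its vehicle correlated above 0.1 in their deviations. The labels do not say what the number stands for or that cultures were separate, so that p-values measure the spread between these samples. A gene was called at an adjusted p (Benjamini-Hochberg, over all genes tested) under 0.05. CPM values are TMM-normalized, and log2 CPM used a prior count of 2. Alternatives were the model without the block, DESeq2 1.42.0 and its size factors, other filters, removal of the trend on GC content, only the agonist and its own vehicle, a ribosomal RNA term, and leaving out number 5 or each sample. Chosen after seeing the data were leaving out number 4 and the GC correction without the norepinephrine library of replicate 4. The model was also run on simulated counts with random shifts between replicate numbers and known changes with norepinephrine only. These counts held no GC trend and no outlying library, so they could not check the model on those features. Figures were drawn with matplotlib 3.10.9.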

Additional observations from a re-analysis of the deposited data

Results flagged for a closer look

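Of the 40 sets of values checked (10 genes in 4 groups), 2 held a library far from the others, where chance gives about 1 in 20. Hes1 was at 81.8 CPM in the HCl library of replicate 2, and the nearest of the other 3 HCl libraries was at 90.5 CPM. Neurog3 was at 8.16 CPM in the norepinephrine library of replicate 4, and the nearest of the other 4 was at 6.12 CPM. The same library had the slope of 0.195 on GC content given above, and its part in the Neurog3 value was not tested. In edgeR's test of the difference between the agonists, 0 of the 10 genes passed.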

How the results depend on the processing

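Across 30 alternatives, 18 of which left out 1 library each, 0 members were called for norepinephrine, and 0 members and 0 pathway genes for the difference between the agonists and for the vehicles. These last comparisons could not be fitted where each agonist was taken alone with its vehicle. For UK14304, the GC correction called 1 member (Notch1) and 1 pathway gene (Pou2f3), where 4.11% of all genes were called, and with the norepinephrine library of replicate 4 also left out it called 2 members (Dll1 and Notch1) and 3 pathway genes, where 7.2% of all genes were. Pathway genes called ran from 0 to 14 for norepinephrine and from 0 to 5 for UK14304 when 1 library was left out, with both upper values without the norepinephrine library of replicate 4 (16.7% and 8.08% of all genes), and 1 gene (Pou2f3) was called for UK14304 without the DMSO library of replicate 3 (0.617% of all genes). Leaving out all of number 4 gave 10 and 2 pathway genes (15.1% and 3.83% of all genes), and the fit of UK14304 with its own vehicle only gave 1 (Hes6, with 3.55% of all genes). Of the 600 log2 fold changes of members compared with their values above, 42 turned direction. For Notch1 with norepinephrine (-0.01) these were 0.00 with no filter, 0.07 with the GC correction, 0.09 with that correction and the library left out, and 0.01 both with its own vehicle only and without number 5. For Dll4 with UK14304 (0.00) they were 0.01 without the replicate block, 0.00 with DESeq2 or its size factors, 0.02 with DESeq2 and no block, 0.04 with the ribosomal RNA term and 0.06 with the GC correction, with or without that library. Hes1 came to 0.00 for both agonists with the GC correction, with or without that library. Leaving out 1 library gave -0.04 to 0.04 for Notch1, -0.01 to 0.06 for Notch2 and -0.04 to 0.00 for Hes1 with norepinephrine, and -0.04 to 0.03 for Dll4 and -0.07 to 0.12 for Gfi1 with UK14304. The model without the pairing by replicate number changed no call among the members or pathway genes, of which 0 were called for either agonist. The cause of the changes was not tested. Gfi1 and Neurod1 had the fewest reads and the widest intervals of the members.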
